A study of Drosophila melanogaster with 6 samples.

Results

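The genes described here are 7 transcriptional regulators known for their part in direct or indirect flight muscle fate in Drosophila: vg, sd, salm, salr, ct, ap and lms. They were found by symbol among the 17494 genes of the deposited count table, and all 7 had enough counts to be among the 10306 genes tested. RNA was taken from wing disc myoblasts at the start of puparium formation (0 h APF), from animals raised at 25 °C, in 3 WT libraries and 3 M1BP RNAi libraries. The larvae of both groups carried UAS-GFP::Gma and Mef2-GAL4, which drives expression at all stages of the muscle lineage and can also do so in some neurons. The Mef2 gene itself is also expressed in fat body. The M1BP RNAi larvae also carried the UAS construct M1BP RNAi #1. Cells from 30 to 35 pooled discs were sorted on viability, size and GFP, so a library holds the GFP-positive cells of many animals and not a single type of myoblast. Each library came from its own RNA preparation.

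Adult flight muscle is of 2 types. The indirect flight muscles are fibrillar and power the wing beat by deforming the thorax, whereas the direct flight muscles are tubular, attach at the wing hinge and steer. Their precursors lie side by side on the notum of the wing disc, where the myoblasts of the indirect muscles hold much Vestigial (vg) and those of the direct muscles hold much Cut (ct), and each of these factors restrains the other. Vestigial has no DNA-binding domain of its own and acts through Scalloped (sd), a TEAD protein. Spalt major (salm) acts later, in the growing fibres, as the selector of the fibrillar type, and Spalt-related (salr) is its paralogue. Apterous (ap), a LIM-homeodomain protein, is required for direct flight muscles, and Lateral muscles scarcer (lms) is a homeodomain protein of lateral larval muscles and of direct flight muscle precursors. M1BP is a zinc finger protein that binds Motif 1 of core promoters and pauses RNA polymerase II.

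Library totals lay between 43086545 and 51855156 counts. M1BP, the target of the RNAi, was 0.305-fold of WT in M1BP RNAi (log2 fold change -1.71, SE 0.10, adjusted p 1.45e-05). Here and below, adjusted p values are from the quasi-likelihood F test of edgeR after Benjamini-Hochberg correction over all tested genes. The myoblast markers twi, Mef2, zfh1, Him, htl and stumps were all tested, and summed to between 5168 and 5866 CPM per kilobase of exon in WT and between 4946 and 5396 in M1BP RNAi. This unit, counts scaled to the library size (CPM) and divided by gene length, is called the level below and is the scale on which genes are compared with each other. Most of the sum came from Him, at a mean level of 3672, followed by twi at 906. For Mef2 each M1BP RNAi library was above each WT library, as for 13.8% of all tested genes (log2 fold change 0.11, adjusted p 0.286, edgeR).

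Transcripts of 5 of the 7 factors were abundant in the sorted myoblasts at 0 h APF, and those of the spalt genes were scarce. The order by mean level over the 6 libraries was sd at 87.7, vg at 68.0, ap at 67.4, lms at 28.9, ct at 23.6, salm at 1.90 and salr at 0.524. Among the tested genes sd, vg and ap ranked 895, 1224 and 1233, lms and ct ranked 3100 and 3626, and salm and salr ranked 7604 and 8879. Most steps in this order held in each library. sd was above vg in 6 of 6 libraries, ap above lms in 6, ct above salm in 6 and salm above salr in 6, with no overlap of the levels over libraries. vg and ap could not be ordered, since their levels overlapped and vg was the higher in 4 of 6 libraries. lms was above ct in 6 of 6 libraries, by 1.23-fold on average, yet their ranges overlapped. The level of lms is also uncertain, since 39.3% of its exonic bases lie in exons of another gene, Mgat1. Transcripts of factors of both precursor types were thus present in each sorted pool. In such bulk samples fewer cells of a type and less RNA per cell cannot be told apart.

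**Figure D1:**
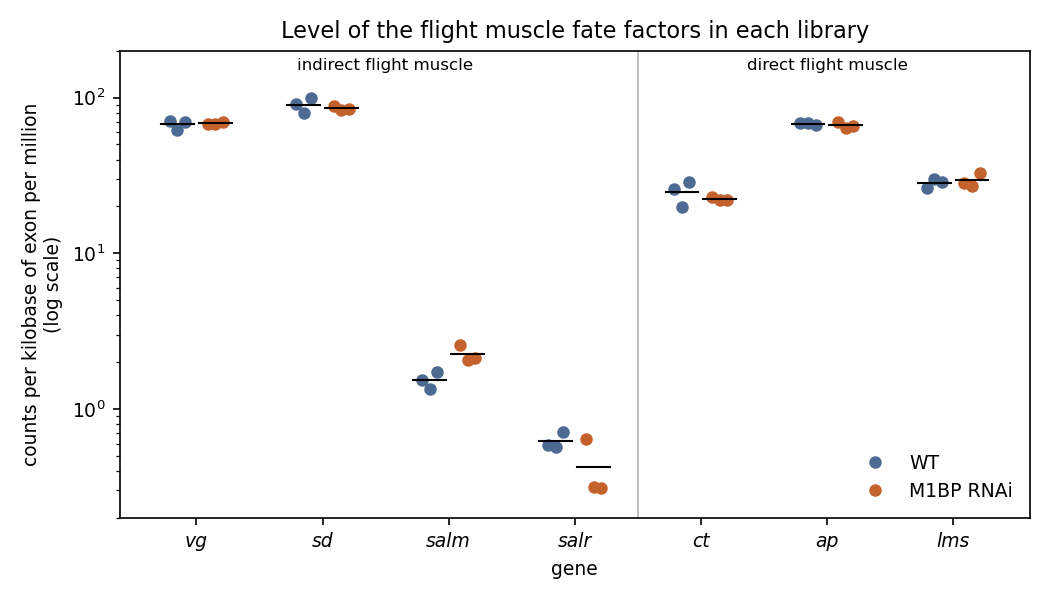
Level of each factor (CPM per kilobase of exon, log scale) in the WT libraries (blue) and the M1BP RNAi libraries (orange), with black bars at the means of 3. sd, vg and ap lie above 60 in each library, whereas salm and salr lie under 3.

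The genotypes were then compared for a difference in the fate factors upon M1BP RNAi in myoblasts. The study's threshold required an adjusted p no higher than 0.001 together with a difference of 1.5-fold or more. It was passed by 0 of the 7 factors in edgeR, against 0.475% of all tested genes. The DESeq2 Wald test at the same threshold also gave 0 of 7, against 1.58% of genes. At an unadjusted p under 0.05 there was 1 factor, salm, with either tool, and 20.2% of all tested genes reached that level in edgeR. WT and M1BP RNAi libraries were fully separated for 1 factor, again salm, and for 26.1% of tested genes, of which the genes higher in M1BP RNAi made up 13.8% of those tested. The median log2 fold change was -0.026 over the 7 factors and 0.0070 over all tested genes. For vg, sd, ct, ap and lms the 95% interval of the change lay within 1.5-fold in either direction, while the intervals of salm and salr reached past it.

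**Figure D2:**
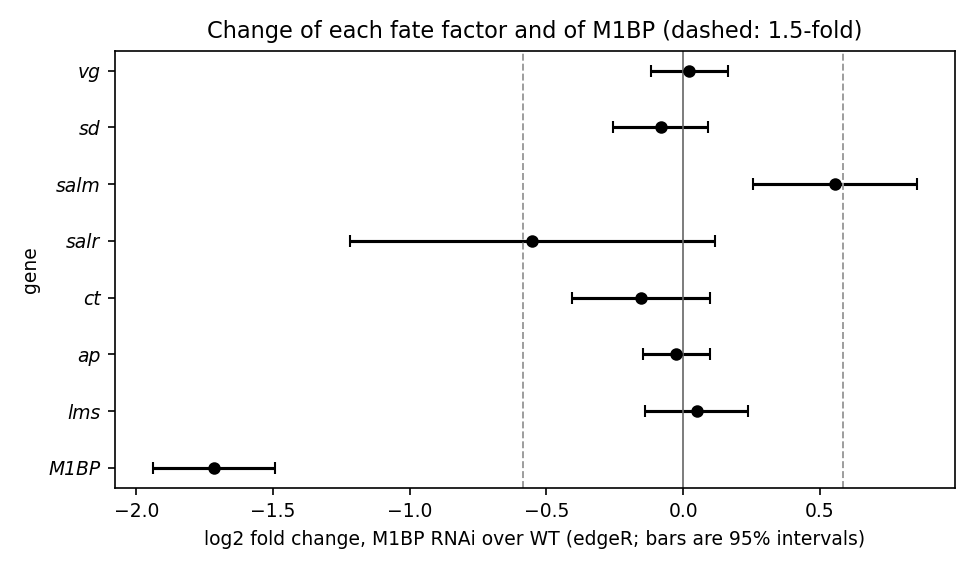
Change on the log2 scale (M1BP RNAi over WT) for each factor and for M1BP, with 95% intervals from edgeR's quasi-likelihood fit and dashed lines at 1.5-fold. The intervals of vg, sd, ct, ap and lms cross 0 inside the dashed lines, that of salm lies above 0, and that of M1BP lies below -1.49.

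Among the factors of the indirect flight muscles, vg (FBgn0003975, dm6 2R, 12884632 to 12899385, plus strand, 8 exon blocks) was counted 12530, 9359 and 12087 times in WT and 10997, 10167 and 11034 times in M1BP RNAi. The WT level was 67.4 ± 4.67 and the M1BP RNAi level 68.5 ± 1.04 (SD, n = 3). WT replicate 2 was the lowest library, and the M1BP RNAi libraries lay inside the range of the WT libraries. The log2 fold change was 0.023 (SE 0.063, 95% interval -0.12 to 0.16, adjusted p 0.875, edgeR), an interval of 0.922-fold to 1.12-fold for the pooled cells. It was -0.039 without WT replicate 2, so its sign depended on that library.

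sd (FBgn0003345, X, 15804370 to 15827682, plus strand, 17 exon blocks), which brings Vestigial to DNA, was the most abundant of the 7. Its counts were 40755, 30579 and 43821 (WT) and 36017, 31376 and 34003 (M1BP RNAi). Again WT replicate 2 was the lowest library and WT replicate 3 the highest, and the levels of 90.2 ± 9.83 and 85.2 ± 2.60 (SD, n = 3) overlapped. Its log2 fold change was -0.083 (SE 0.078, 95% interval -0.26 to 0.092, adjusted p 0.590, edgeR). It depended on the WT libraries, being -0.011 without WT replicate 3 and -0.17 when WT replicate 2 was left out (adjusted p 0.121, edgeR). Scalloped is also the DNA-binding partner of Yorkie, the coactivator of the Hippo pathway, and the sd level exceeded that of vg in each library by a ratio of 1.22 to 1.43.

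The 2 spalt genes lie 60674 bases apart on 2L and encode zinc finger proteins. salm (FBgn0261648, 11434311 to 11445614, minus strand, 4 exon blocks) gave 485, 356 and 531 counts for WT and 737, 549 and 595 for M1BP RNAi. Each of the 3 M1BP RNAi libraries lay above each of the 3 WT libraries, and M1BP RNAi replicate 1 was the highest. Levels were 1.54 ± 0.198 (WT) and 2.26 ± 0.276 (M1BP RNAi; SD, n = 3), and the log2 fold change was 0.55 (SE 0.13, 95% interval 0.26 to 0.85, adjusted p 0.0508, edgeR). salm thus missed the study's threshold in both the adjusted p and the size of the change, and it also missed an adjusted p of 0.05, which 1.92% of tested genes passed as higher in M1BP RNAi. The DESeq2 Wald test gave salm an adjusted p of 0.00788 and edgeR without a filter on low counts gave 0.0334. The alternatives as a whole spanned adjusted p values of 0.00788 to 0.157, and the log2 fold change lay between 0.44 and 0.64. With 1 library left out, the adjusted p was highest without WT replicate 1 and lowest, at 0.0577, without WT replicate 3 (edgeR).

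salr (FBgn0000287, 2L, 11358873 to 11373636, plus strand, 8 exon blocks) gave 166, 138 and 198 counts for WT and 167, 76 and 79 for M1BP RNAi. M1BP RNAi replicate 1 lay among the WT libraries, whereas M1BP RNAi replicates 2 and 3 were below all of them. Levels were 0.624 ± 0.0781 (WT) and 0.425 ± 0.191 (M1BP RNAi; SD, n = 3), and the coefficient of variation of 44.9% in M1BP RNAi was the highest of the 7 factors. The log2 fold change was -0.55 (SE 0.30, 95% interval -1.22 to 0.11, adjusted p 0.336, edgeR). Without M1BP RNAi replicate 1 it was -0.99 with an adjusted p of 0.0722 in edgeR, and this library moved the value of salr by more than any other.

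The spalt genes therefore had estimates of about the same size in opposite directions, neither of them past the threshold. Within a library, where depth cancels, the salm level was 2.64, 2.33 and 2.43 times that of salr in WT and 3.99, 6.54 and 6.82 times in M1BP RNAi. The ratio was higher in each M1BP RNAi library than in any WT library, and the difference of the log2 ratio was 1.19. This ratio was examined after the values of both genes had been seen and was not tested. With 1 library left out the difference lay between 1.05 (without M1BP RNAi replicate 3) and 1.44 (without M1BP RNAi replicate 1).

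**Figure D3:**
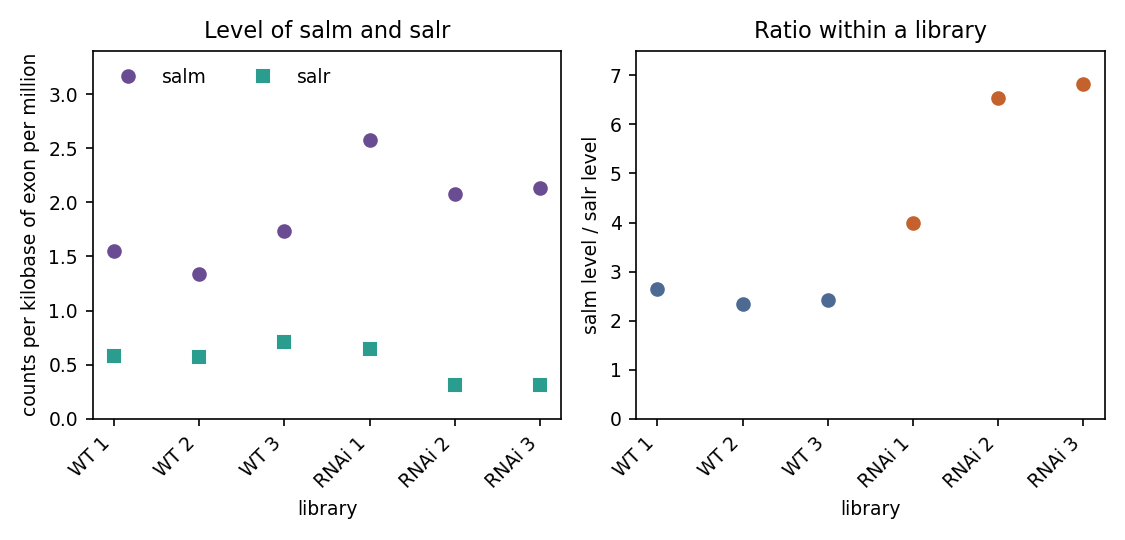
Left, level of salm (circles) and salr (squares), in CPM per kilobase of exon, in each library; right, the ratio of the levels in WT (blue) and M1BP RNAi (orange). The ratio lies between 2.33 and 2.64 in WT and between 3.99 and 6.82 in M1BP RNAi.

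Of the factors of the direct flight muscles, ct (FBgn0004198, X, 7608428 to 7678859, plus strand, 9 exon blocks) has the longest exonic sequence of the 7, with 12443 bases. Its counts were 16632, 10718 and 17810 in WT and 13300, 11845 and 12516 in M1BP RNAi. The WT libraries reached both above and below the M1BP RNAi libraries. The WT level was 24.8 ± 4.52 and the M1BP RNAi level 22.3 ± 0.4995 (SD, n = 3). The log2 fold change was -0.15 (SE 0.11, 95% interval -0.41 to 0.098, adjusted p 0.480, edgeR). It depended on WT replicate 2, without which it was -0.30 with an adjusted p of 0.0226 in edgeR, whereas it was -0.048 without WT replicate 3.

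ap (FBgn0267978, 2R, 5706202 to 5727525, minus strand, 10 exon blocks) gave 15174, 12830 and 14534 counts for WT and 14092, 12009 and 13071 for M1BP RNAi. Its WT libraries were the most uniform of any factor, with a coefficient of variation of 1.07%, and the M1BP RNAi libraries lay on both sides of them. Levels were 68.0 ± 0.730 (WT) and 66.8 ± 2.81 (M1BP RNAi; SD, n = 3), and the log2 fold change was -0.026 (SE 0.055, 95% interval -0.15 to 0.097, adjusted p 0.831, edgeR).

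lms (FBgn0034520, 2R, 20556877 to 20559953, plus strand, 3 exon blocks) gave 2747, 2669 and 2921 counts for WT and 2698, 2392 and 3022 for M1BP RNAi. The level was 28.4 ± 1.91 and 29.4 ± 2.80 (SD, n = 3), and the libraries overlapped. Its log2 fold change of 0.049 (SE 0.084, 95% interval -0.14 to 0.24, adjusted p 0.787, edgeR) had no stable sign, being -0.032 when M1BP RNAi replicate 3 was left out and -0.0033 when WT replicate 1 was. Its counts are uncertain, because 798 of its 2030 exonic bases, or 39.3%, lie in exons of Mgat1 on the other strand, and the library kit does not mark strand. Mgat1 itself stood at 0.068 on the log2 scale, with an SE of 0.078 (adjusted p 0.670, edgeR). The exons of the other 6 factors overlap those of no other gene.

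Because vg and ct mark the opposed precursor types, the ratio of their levels within a library was compared. The ct level was 0.369, 0.319 and 0.410 of the vg level in WT and 0.337, 0.324 and 0.316 in M1BP RNAi. The M1BP RNAi libraries lay close together, and the 2 higher of them lay inside the WT range. The log2 ratio was -1.46 ± 0.183 (WT) and -1.62 ± 0.0465 (M1BP RNAi; SD, n = 3), a difference of -0.16, which is under the SD of the WT libraries. It lay between -0.26 and -0.077 when 1 library was left out.

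The spread of ct and sd between WT libraries was shared. Over the 6 libraries the log2 CPM of ct and sd had a Pearson r of 0.97 and a Spearman rho of 1, and r was 0.91 without the 2 libraries farthest from the median of ct. For vg and ct, r was 0.73 and rho 0.71, and r fell to 0.49 without the 2 libraries farthest from the median of vg. These are descriptions over 6 libraries, in which the genes share the cDNA and its amplification. The 444 tested genes with at least 8000 exonic bases moved in the same libraries. Relative to the mean of the 6 libraries their median was 0.087, -0.13 and 0.13 on the log2 scale in the WT libraries and 0.022, -0.055 and -0.031 in the M1BP RNAi libraries, where ct stood at 0.16, -0.24 and 0.29 and at -0.031, -0.087 and -0.087. sd stood at 0.052, -0.13 and 0.19 in WT and at 0.0076, -0.080 and -0.043 in M1BP RNAi. Shorter factors did not follow the genes of their own length in this way. In WT replicate 2, vg, with 3463 exonic bases, stood at -0.13, beside a median of 0.011 for genes of 2000 to under 4000 bases. salm, with 6118 bases, stood at -0.47 there, beside -0.031 for genes of 4000 to under 8000 bases. The part of exonic length in the spread of the factors was not tested. With an offset for the exonic length of each gene in each library, chosen after seeing the data, the log2 fold change was -0.092 for ct, -0.027 for sd and 0.62 for salm, and edgeR gave adjusted p values of 0.482, 0.786 and 0.0140.

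**Figure D4:**
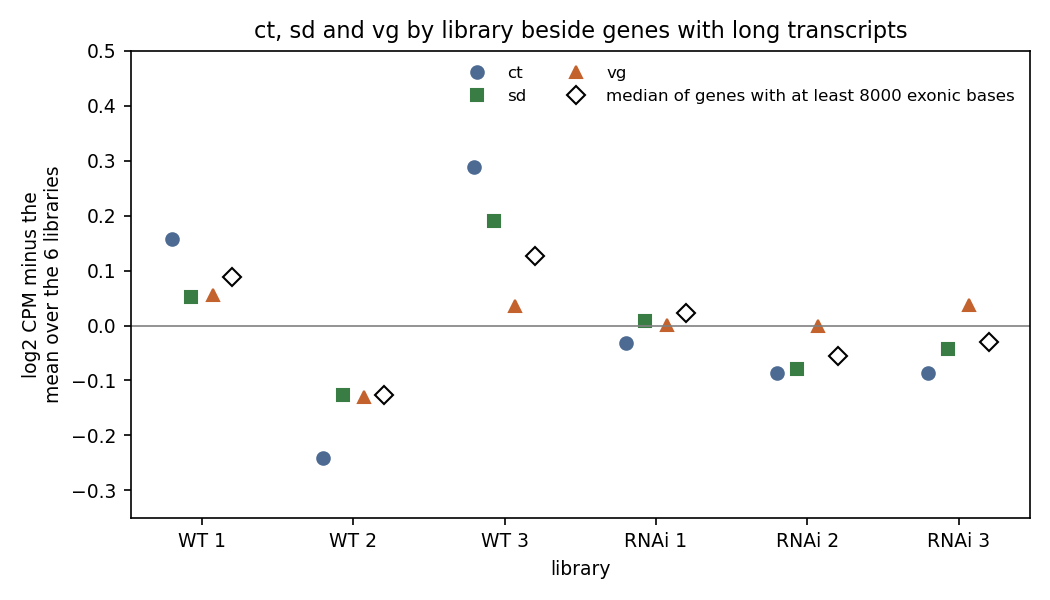
Deviation of log2 CPM from its mean over the 6 libraries for ct (circles), sd (squares) and vg (triangles), with the median of the 444 tested genes of at least 8000 exonic bases (open diamonds). ct, sd and the long genes are lowest in WT replicate 2 and highest in WT replicate 3.

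The partners and upstream signals of these factors were read from a list of 12 genes, of which 11 were tested, and 0 of the 11 passed either the study's threshold or an adjusted p of 0.05 in edgeR, where 4.09% of tested genes passed the latter. There were also 0 at an unadjusted p under 0.05 in edgeR, against 20.2% of all tested genes. Extradenticle (exd) and Homothorax (hth), homeodomain proteins that act upstream of salm in fibrillar fate, had levels of 77.1 and 74.8 and log2 fold changes of 0.061 and 0.048. Chi, the LIM-binding cofactor of Apterous, and Bx, which competes with Apterous for it, stood at -0.037 and -0.040, and Ssdp, which binds Chi, at -0.012. For yki and Tgi, the other partners of Scalloped, the values were -0.054 and 0.11, the latter the highest of the list. N and Su(H), which pass on the Notch signal in these myoblasts, stood at -0.082 and -0.18. For Su(H) each M1BP RNAi library was below each WT library, beside 26.1% of all tested genes separated in either direction. The lowest value, -1.02, belonged to wg, whose product from the epithelium sustains vg in the myoblasts, with counts of 98, 63 and 183 in WT and 10, 140 and 1 in M1BP RNAi (SE 1.02, adjusted p 0.611, edgeR). zfh1, a repressor that keeps myoblasts undifferentiated, had the highest level, 356. The transcript of aret (now bru1), the splicing regulator of fibrillar muscle that Spalt controls, had 0 to 4 counts in a library and was not tested.

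Of 4 fibrillar and 2 tubular muscle genes, 3 were tested and 0 passed an adjusted p of 0.05 in edgeR, against 4.09% of all tested genes. An unadjusted p under 0.05 in edgeR was reached by 1 fibrillar gene, Act88F, and 1 tubular gene, Act79B, beside 20.2% of all tested genes. The flightin gene fln had at most 3 counts in a library, TpnC4 at most 2 and TpnC41C at most 10, and these were not tested. Strn-Mlck, of the fibrillar list, had between 3962 and 5306 counts in a library and a log2 fold change of 0.086 (adjusted p 0.580, edgeR). Act88F, the actin of the indirect flight muscles, gave 171, 126 and 140 counts for WT and 178, 181 and 378 for M1BP RNAi (log2 fold change 0.85, adjusted p 0.139, edgeR). The tubular actin Act79B gave 85, 91 and 80 for WT and 93, 85 and 354 for M1BP RNAi (1.13, adjusted p 0.236, edgeR), and for either gene M1BP RNAi replicate 3 was far above the rest. For Act88F each M1BP RNAi library was above each WT library, as for 13.8% of all tested genes.

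Of 15 factors that give identity to other muscles, 7 were tested and 1 had an adjusted p under 0.05 in edgeR, beside 4.09% of all tested genes. This was nau, the single MyoD-type factor of the fly, with 535, 434 and 606 counts (WT) and 795, 731 and 650 counts (M1BP RNAi). The WT and M1BP RNAi libraries did not overlap, as for 26.1% of all tested genes. The change on the log2 scale was 0.57 (SE 0.12, adjusted p 0.0272, edgeR), which is short of the study's threshold. The Iroquois genes ara and caup and the homeobox gene Dr had levels of 58.6, 25.5 and 39.9, in the range of lms, ct and vg, with log2 fold changes of 0.069, 0.058 and -0.016. slou and Poxm, at mean levels under 1, stood at 1.08 and -0.91 (adjusted p 0.292 and 0.380, edgeR). The other 8 did not have enough counts to be tested.

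**Figure D5:**
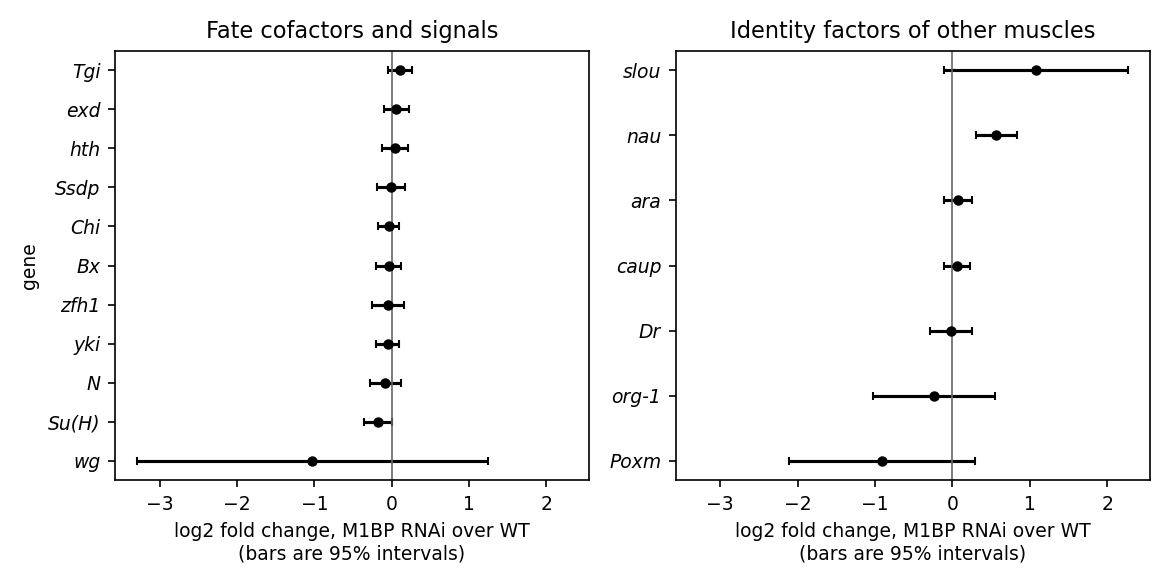
Change on the log2 scale (M1BP RNAi over WT) with 95% intervals (edgeR) for the tested cofactors and signals of flight muscle fate (left) and for the tested identity factors of other muscles (right). The interval of nau lies above 0, and the widest intervals belong to wg, slou and Poxm.

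vg, sd, salm, salr, ap and ct are also active in the wing disc epithelium, so its markers were read beside them. Of 9 epithelial markers 9 were tested, and their summed level was between 64.7 and 79.6 in WT and between 79.7 and 84.6 in M1BP RNAi, nearly all of it from rn, at a level of 71.8 (log2 fold change 0.23, adjusted p 0.106, edgeR). WT and M1BP RNAi libraries were fully separated for 3 of the 9, higher in M1BP RNAi for rn and lower for nub and dve, beside 26.1% of all tested genes. Without rn the sum was 6.04, 5.20 and 7.52 in WT and 5.42, 6.73 and 2.51 in M1BP RNAi. The mean levels of these other 8 markers ran from 0.0806 for pdm2 to 1.64 for dve, and that of nub, a defining gene of the wing pouch, was 0.392. By mean level over the 6 libraries, sd, vg and ap were thus far above 8 of the markers but close to rn, and salr at 0.524 lay among the 8. By that mean salm, at 1.90, was above the same 8, but its place against dve differed between the genotypes. In WT salm stood at 1.54 and dve at 1.99, whereas in M1BP RNAi salm stood at 2.26 and dve at 1.29. Dll, active in the pouch as salm is, stood at 0.153, 0.146 and 0.0724 in WT and at 1.03, 0.335 and 0.119 in M1BP RNAi, highest in M1BP RNAi replicate 1, the library that was also highest for salm. pdm2, at 0.157, was likewise highest in that library, whereas nub, at 0.251, and dve, at 1.17, were at their lowest of all 6 libraries. nub and dve were, however, lower in each M1BP RNAi library than in each WT library. The remaining markers were at neither extreme in M1BP RNAi replicate 1. At an adjusted p of 0.05, 1 of the 9 markers passed, beside 4.09% of all tested genes. This was dve, which fell from 540, 396 and 494 to 270, 300 and 291 counts (log2 fold change -0.63, adjusted p 0.0262, edgeR). The part of epithelial RNA in the values of the factors was not tested. Of 5 markers of sensory organ precursors, where ct is active, and of neurons, 1 was tested. The summed level of that list lay between 2.998 and 3.49 in WT and between 2.51 and 3.73 in M1BP RNAi, most of it from the neuronal gene elav, with 1156 to 1566 counts in a library. sens and ase had at most 3 counts in a library, ac at most 14 and sc at most 35, with the highest ac and sc counts in M1BP RNAi replicate 1. For trachea markers the sum lay between 1.11 and 1.48 in all libraries, and for fat body markers, of which 0 of 3 were tested, it was at most 0.133. For haemocyte markers it was 4.37 to 6.34 in WT and 3.19 to 4.11 in M1BP RNAi, which do not overlap. Most of it came from Pxn, with levels of 4.34, 3.85 and 5.73 in WT and 2.98, 3.73 and 3.55 in M1BP RNAi (adjusted p 0.130, edgeR). Of the 3 tested haemocyte markers, 2 were fully separated and lower in M1BP RNAi, beside 26.1% of all tested genes separated in either direction.

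The genes whose log2 CPM followed each factor most closely were listed among 7903 other genes with a mean of at least 100 counts, as a description over 6 libraries. For vg they were CG15233, CG31522 and stc, with Pearson r from 0.98 to 0.97. MRP, CycT and trc followed ct, and Cph, Larp4B and fz2 followed sd, with r of 0.99 for each. Those of salm were CG1146, CG10300 and asRNA:CR43629, with r from 1.00 to 0.98. Their log2 fold changes were 0.43, 0.57 and 0.36 (adjusted p 0.0371, 0.129 and 0.295, edgeR), and since they were chosen for following salm, a difference in the direction of salm follows from that choice. stas, Sara and CG17806 followed salr, with r of 0.99. For ap these genes were asRNA:CR44975, CG10958 and VhaSFD, with r from 0.99 to 0.96. For lms they were CG10077, CG5793 and Rab3GAP1, with r from 0.99 to 0.97. All genes listed here were picked for the highest r among 7903 genes over only 6 libraries, so high r values follow from that choice. Whether these r values exceed those that unrelated genes would reach was not tested.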

How the data were processed

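PolyA RNA of the myoblasts was turned into cDNA by SMART-Seq (10 amplification cycles) and into libraries by Nextera tagmentation (12 cycles), with neither molecular identifiers nor strand. The authors deposited raw counts per gene, summed over exons from reads aligned uniquely to dm6. The submitters' notes name featureCounts of Subread 2.0.3. The aligner and the annotation release are not given in the sources used here. The authors also deposited their own comparison, with log2 fold changes, p-values and adjusted p-values, of which the symbols and identifiers alone were used.

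Groups and replicate numbers came from the sample titles. Genes were filtered with filterByExpr (minimum count 10) and tested with edgeR 4.0.16 in R 4.3.3 (TMM, glmQLFit, glmQLFTest, genotype as the single term, Benjamini-Hochberg adjustment over 10306 genes), after tests on simulated data. edgeR's common biological coefficient of variation came to 11.9%. The SE came from the estimate and its F, and 95% intervals from the fit's t distribution without adjustment over genes. Levels use the TMM-scaled library size and the exonic length in the count table. Log2 CPM values have a prior count of 2. Counts of at most 3 were treated as the floor, which corresponded to between 0.0579 and 0.0696 CPM. Within a genotype no pair of libraries agreed to within sampling noise (chi-square of 10.7 to 51.7 per degree of freedom). Alternatives were the DESeq2 1.42.0 Wald test, RLE size factors, other filters and thresholds, a replicate block, leaving out each library, and, chosen after seeing the data, length-bin offsets.

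The members and gene lists were chosen with earlier results of these data known. The named genes were the 7 factors, M1BP, listed genes with an adjusted p under 0.05 or at the ends of their list, and for each factor the 3 genes with the highest Pearson r. Act88F, Act79B, fln, TpnC4, TpnC41C, Strn-Mlck, the other cell type markers, ara, caup, Dr and further cofactors were named after their values were seen. Symbols were looked up by FlyBase identifier, and aret was matched as a synonym of bru1.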

Additional observations from a re-analysis of the deposited data

How the results depend on the processing

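For the 7 factors 0 passed the study's threshold under any alternative. At an adjusted p of 0.05 there were 0 in the edgeR fit reported, 1 (salm) with DESeq2, without the filter or with length-bin offsets, and 1 (ct) without WT replicate 2. In the edgeR fit reported 4.09% of all tested genes passed that level. The share of all genes was not taken at that level for DESeq2 or the other alternatives, so these counts cannot be set against it. Of 154 results under an alternative, 140 kept their direction and their side of the threshold. For counts of genes this meant staying within 1.5 times, and for the ratios moving by less than the larger SD of the genotypes. The 154 include those of M1BP. Alternatives that changed the threshold alone reused the reported fold changes, so their sign could not change. The sign changed for vg without WT replicate 2 (-0.039), for lms without WT replicate 1 (-0.0033) and without M1BP RNAi replicate 3 (-0.032), and for ap with the length-bin offsets (0.038), and all of these lie within the intervals given in the report. The count of 49 genes past the threshold became 172 with the DESeq2 Wald test, 99 without the filter on low counts, 422 at an adjusted p of 0.05 with no condition on the fold, 19 with the replicate block, and 17 to 31 without 1 library (17 without M1BP RNAi replicate 2, 31 without WT replicate 2). Leaving out a library gives fewer samples, and the other causes were not tested. Replicate numbers did not pair the libraries (correlations of deviations for equal numbers of 0.031, -0.046 and -0.16), and under the replicate block the factors had log2 fold changes of 0.025 (vg), -0.14 (ct), -0.077 (sd), 0.56 (salm), -0.63 (salr), -0.026 (ap) and 0.048 (lms), with 0 called. Without 1 library the ranges were -0.039 to 0.055 for vg, -0.032 to 0.099 for lms, -0.064 to -0.0010 for ap, -0.30 to -0.048 for ct, -0.17 to -0.011 for sd, 0.44 to 0.64 for salm and -0.99 to -0.37 for salr. The intervals of salm and salr, which have the fewest counts, do not settle whether either differs by 1.5-fold.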
